A study of Mus musculus with 2 samples.

Results

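The Esrrb locus held 8 of the 16865 MAFK regions in the authors' optimal list, and one of them had the highest signal value in that list. The locus is taken here as the gene body of Esrrb (ENSMUSG00000021255.17, chr12:86361117-86521628 on mm10, plus strand, 160.5 kb) with 100 kb on either side. Members were chosen by the position of their summit in 2 deposited lists, and Esrrb itself was chosen with its signal values known. The optimal list gave 8 members and the relaxed list of pooled replicates gave 96 of 300000. The relaxed list is labelled as holding peaks and background. Because of how the members were chosen, their number and signal values are a description and carry no test.

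MAFK was mapped by chromatin immunoprecipitation with sequencing (ChIP-seq) in ES-E14, a male embryonic stem cell line of mouse strain 129/Ola, with no treatment named. Both samples belong to this 1 group and are biological replicates 1 and 2. Their labels name the same batch of cells, and part of the difference between them may be technical. Read depth is unknown, because only lists of regions were used, and the control experiment was not analysed here.

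Esrrb encodes estrogen-related receptor beta, an orphan nuclear receptor that binds DNA without a known natural hormone and helps keep mouse embryonic stem cells in the naive pluripotent state. MAFK is a small MAF protein. It has a basic leucine zipper for DNA binding and pairing but no activation domain of its own, and it binds as a homodimer or with CNC partners such as NRF2 and BACH1. A MAF homodimer is known for its T-MARE palindrome, TGCTGACTCAGCA or TGCTGAGTCAGCA, whereas a MAF and CNC pair uses the composite element TGACTCAGCA or TGAGTCAGCA, which is the palindrome without its first 3 bases.

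The 5 members of highest signal are shown first because the match to this palindrome is what sets them apart by sequence. They are named E1 to E8 by falling signal. Each line gives the summit base with 50 bases on either side, from the plus strand of the GRCm38 reference, with the best match to the palindrome in capitals. The reference is not the genome of ES-E14 itself.
E1, chr12:86488192-86488292: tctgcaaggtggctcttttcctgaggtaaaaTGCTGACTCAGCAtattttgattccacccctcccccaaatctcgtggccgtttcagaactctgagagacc
E2, chr12:86507833-86507933: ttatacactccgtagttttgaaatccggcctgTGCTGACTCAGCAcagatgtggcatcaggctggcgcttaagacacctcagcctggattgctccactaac
E3, chr12:86309526-86309626: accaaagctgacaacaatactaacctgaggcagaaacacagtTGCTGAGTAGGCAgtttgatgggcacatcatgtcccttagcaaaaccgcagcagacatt
E4, chr12:86518827-86518927: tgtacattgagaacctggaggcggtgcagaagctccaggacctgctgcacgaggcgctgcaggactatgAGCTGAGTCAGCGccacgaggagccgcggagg
E5, chr12:86398928-86399028: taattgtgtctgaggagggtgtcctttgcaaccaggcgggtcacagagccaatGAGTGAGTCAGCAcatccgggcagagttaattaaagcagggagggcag
E1 and E2 hold the whole palindrome of 13 bases, E3 and E4 match 11 of its bases and E5 matches 10.

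E1 lay in intron 2 of transcript Esrrb-204, at chr12:86488041-86488429, with its summit 305 bp before exon 3 and 127.1 kb downstream of the gene start. The signal value, a deposited score whose scale is not stated, was 509.4 in the pooled list, 266.6 in replicate 1 and 247.5 in replicate 2. These ranked first in the pooled optimal list, second among the 264306 relaxed regions of replicate 1 and first among the 300000 of replicate 2. Both replicates placed it at or next to the top, and the pooled value was 18.3 times the median of 27.9 over the optimal list. The centre of its palindrome was 13 bp left of the pooled summit, and the replicates' summits were 15 bp apart. The pooled summit fell in a run of 24 soft-masked bases, while 0 bases of the palindrome were masked.

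E2 lay 19.6 kb further downstream, in intron 5 at chr12:86507808-86507907, with its summit 1373 bp after exon 5. Its signal was 87.8 in the pooled list, 49.3 in replicate 1 and 41.4 in replicate 2, with rank 1779 in the optimal list. E1 exceeded E2 5.80 times in the pooled list, 5.40 times in replicate 1 and 5.98 times in replicate 2. Both regions carry the same 13 bases, so the palindrome itself does not distinguish them. The summit of E2 was the member closest to an annotated transcription start site (TSS), 3474 bp from that of the short transcript Esrrb-205.

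The other 6 regions were close to the middle of the optimal list. E3 (chr12:86309428-86309723) was intergenic, 51541 bp upstream of Esrrb and 3570 bp from the start of the noncoding RNA gene 4732487G21Rik. It had a pooled signal of 41.4, with 14.2 in replicate 1 and 25.9 in replicate 2. E4 (chr12:86518729-86519024) had its summit 57 bases into exon 7, which is coding at that position in 4 of the 6 annotated transcripts. Its pooled signal was 35.5, with 9.40 in replicate 1 and 25.2 in replicate 2. Coding sequence held 1.46% of all optimal summits on assembled chromosomes.

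E5 (chr12:86398830-86399125) was in intron 1, with 31.6 in the pooled list, 15.6 in replicate 1 and 14.9 in replicate 2. E6 (chr12:86498844-86499139) was in intron 3, with 29.3 in the pooled list, 12.8 in replicate 1 and 16.9 in replicate 2. E7 (chr12:86614209-86614504) was intergenic, 92729 bp past the end of the gene, with 24.8, 9.38 and 12.2 in the same order. E8 (chr12:86497323-86497618) was again in intron 3, with 22.7, 8.99 and 6.57. The last of these values belongs to a replicate 2 region that overlaps E8 but has its summit 159 bp away, while each of the other 7 had a replicate 2 summit within 20 bp of the pooled one. All 8 overlapped a region in the relaxed list of each replicate, as did 97.8% of optimal regions on assembled chromosomes.

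**Figure D1:**
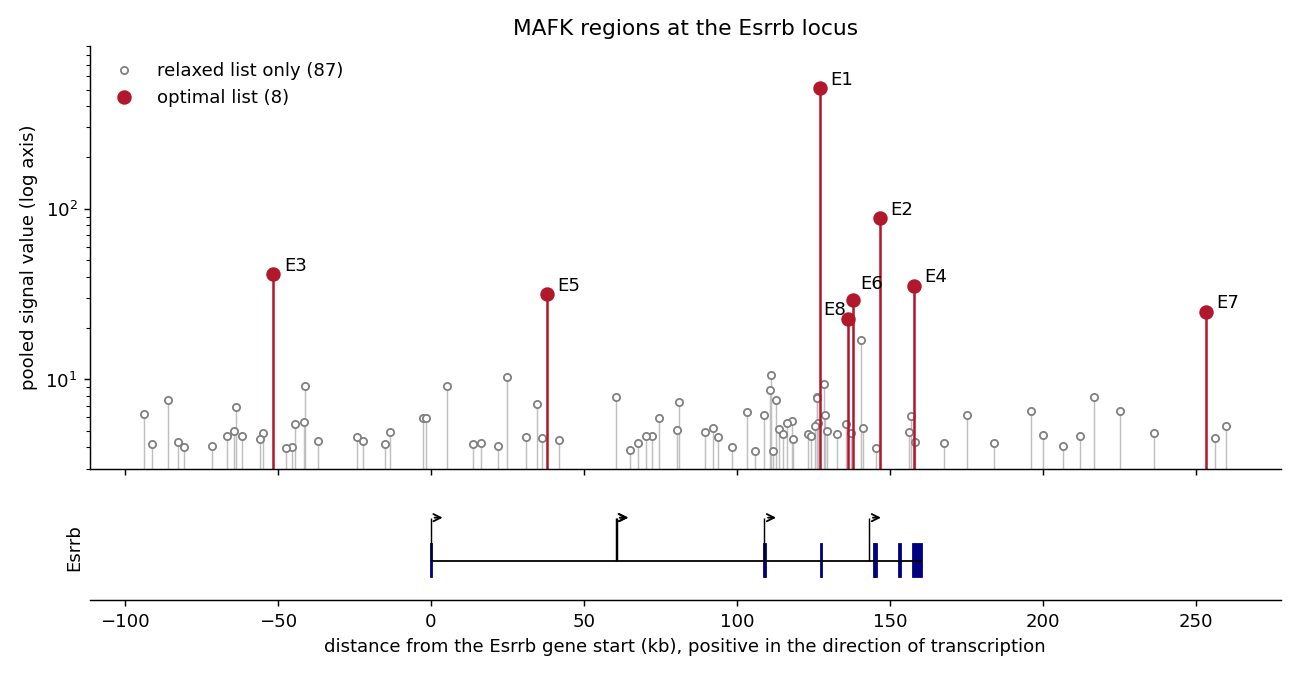
Pooled signal value of each region (log axis) against the distance of its summit from the Esrrb gene start in kb. Filled red points are the 8 optimal regions and open points the 87 relaxed regions that overlap no optimal region; the lower panel shows the 7 exons of Esrrb-204 as boxes and the annotated start sites as arrows. E1 stands at 127.1 kb with a value of 509.4, and E8, E6, E2 and E4 follow it within 30.6 kb.

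The members were gathered in the 3′ part of the gene. E1, E8, E6, E2 and E4 lay within 30.6 kb, from intron 2 to exon 7, 6 of the 8 summits were in the gene body, and 1 was upstream and 1 downstream. Among all optimal summits on assembled chromosomes, 0.968% opened a stretch of that length holding at least 5 summits. The length was set from these members after their positions were seen, so the share is a description. No optimal summit came within 3 kb of any of the 5 annotated Esrrb TSS positions, and the nearest to the first of them, at chr12:86361117, was E5 at 37861 bp.

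**Figure D2:**
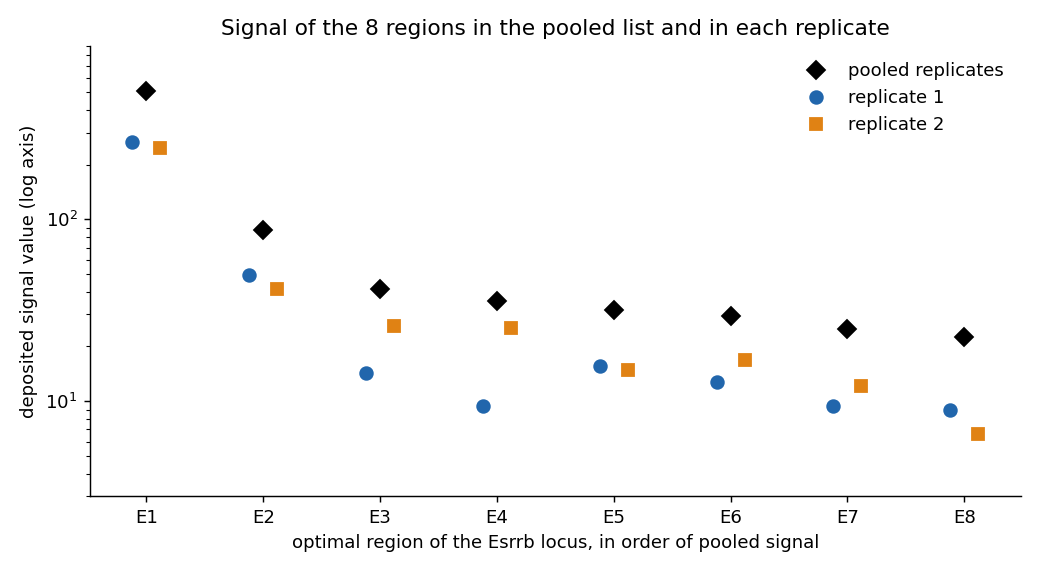
Deposited signal value (log axis) of E1 to E8 in the pooled list (diamonds), replicate 1 (circles) and replicate 2 (squares). The replicates nearly coincide at E1, E2 and E5 and are farthest apart at E4, with 9.40 in replicate 1 and 25.2 in replicate 2.

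The replicates gave close values at E1, E2 and E5 and differed most at E4, followed by E3. The value of replicate 1 divided by that of replicate 2 was 1.08 at E1, 1.19 at E2 and 1.05 at E5, against a median of 0.940 over 16473 optimal regions found in both replicates. At E3 the ratio was 0.549 and at E4 0.373, and 15.5% and 5.40% of those regions had a lower ratio. Among the 2645 regions of similar pooled signal to E4, 3.71% had a lower ratio. E6, E7 and E8 had ratios of 0.758, 0.769 and 1.37. Across the 30 relaxed regions of the locus that overlap a region in both replicates, Spearman's rho was 0.698 and Pearson's r of log2 signal was 0.896. With E1 left out they were 0.665 and 0.808 (29 regions), and among the 21 of them that overlap no optimal region they were 0.194 and 0.281. Some of the 30 overlap the same region of a replicate, so the same values enter more than once. Where overlap had to be 50 percent reciprocal, rho was 0.773 and r was 0.924 (20 regions). All these regions share the same 2 libraries, and the correlations are descriptions.

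Each replicate's own thresholded list, which came from the second processing run, held fewer members. These lists are smaller everywhere, with 7748 regions in replicate 1 and 9541 in replicate 2, beside 16865 in the optimal list. Replicate 1's list overlapped 3 of the 8 regions (E1, E2 and E5), and replicate 2's overlapped 5 (the same 3 with E3 and E4). The 3 regions in both compare with 35.4% of all optimal regions. Counted afresh, the locus held 3 regions in replicate 1's list and 6 in replicate 2's. The sixth, with its summit at chr12:86487579 and a signal of 9.04, lay upstream of E1 and did not overlap it.

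Membership near the threshold depended on the list. Lists are cut by the irreproducible discovery rate (IDR), which compares how regions rank in separate lists, and not by the signal alone. Which lists were compared for each cut was not examined here. A replicate's own list cannot rest on a comparison between the replicates. E8, the member of lowest signal, was in the optimal list but in neither the conservative list of the first run nor the thresholded and conservative lists of the second run. The other 7 were in all of these. E6 had the lowest deposited IDR score of the 8, 593, where 6 others had 1000. Just outside was a region in intron 3 (chr12:86501597-86501892), with 17.0 in the pooled list, 10.7 in replicate 1 and 7.26 in replicate 2. It was absent from the optimal list but present in the 3 lists that lacked E8. The conservative list held 11 regions at the locus, 4 of which overlapped no optimal region, beside 14.2% of the whole conservative list. These were the intron 3 region and 3 weak regions upstream of E1 with signals from 5.53 to 7.87. The summits of these 3 lay between 640 and 1043 bp upstream of that of E1, and 59.1% to 91.9% of their bases were soft-masked. Whether they are part of the signal of E1 was not tested.

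At least 1 of 3 MAF-type elements was within 50 bp of the summit in 5 of 8 members, E1 to E5, beside 79.1% of optimal regions. The composite element was in 3 of 8 regions (E1, E2 and E5), against 28.2% of optimal regions and 0.0891% of windows centred 1000 bp to either side of them. The MAF core TGCTGA was in 4 of 8 (62.8% of optimal regions), and the antioxidant response element core, TGACNNNGC or TGAGNNNGC, in 5 of 8 (60.3%). The perfect palindrome was in 2 of 8 (2.14%). All forms were searched on both strands and overlap: the palindrome holds the composite element and both cores. E6, E7 and E8 held none of them. Their best matches to the palindrome had 4, 5 and 5 mismatches, and 15% and 41.7% of the flanking windows had a best match with 4 and with 5.

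Sequences of the pluripotency factors were not found beside these summits. The ESRRB-type element TCAAGGTCA, the octamer ATGCAAAT bound by OCT4, the SOX core CATTGT, the STAT3 element TTCCNGGAA and the KLF form GGGNGTGG were each in 0 of 8 windows of the same width, on either strand. Among all optimal regions their shares were 0.398%, 1.11%, 6.08%, 0.469% and 3.34%, so few or none would be seen in 8 windows at those shares.

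**Figure D3:**
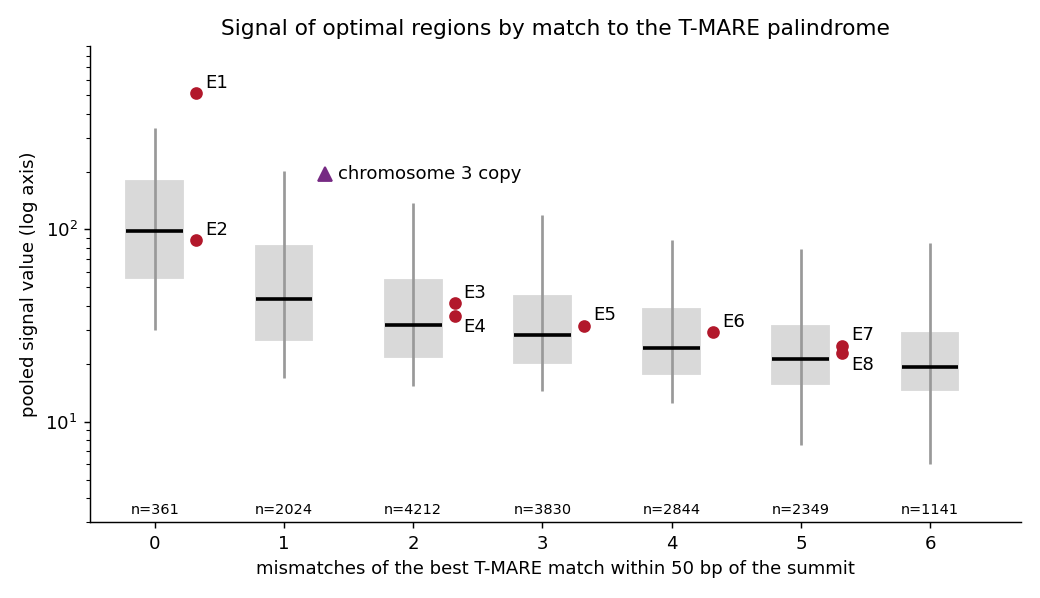
Pooled signal value (log axis) of optimal regions by the number of mismatches of the best T-MARE match within 50 bp of the summit. Bars mark medians, boxes the middle 50% and lines the 5th to 95th percentiles over the n regions given; red points are E1 to E8 and the triangle is the copy of E1 on chromosome 3. E1 lies above its class and E2 near the median of 97.6.

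Over the whole list the median signal was lower with each further mismatch to the palindrome, and 7 of the 8 members lay inside the middle 50% of their class. The median was 97.6 over the 361 optimal regions with the perfect palindrome, 43.7 with 1 mismatch, 31.8 with 2, 28.3 with 3, 24.1 with 4 and 21.1 with 5. In their class, 54.0% of regions were at or above E2, and 36.7%, 43.9%, 42.8%, 37.8%, 38.0% and 44.3% were at or above E3 to E8. E1 was the highest of its 361, which its first rank in the whole list fixed in advance. The positions of the members are a description, since their signals were known when the locus was chosen.

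Perfect palindromes are rare in the genome and mostly coincided with a MAFK summit. The assembled chromosomes hold 383, of which 95.8% had an optimal summit within 50 bp, and the 2 at the Esrrb locus were both among them. Of composite sites, 21.9% of 22501 had one, and of the 8 at the locus 3 did (a palindrome counts as 1 site). The composite sites without an optimal summit were at chr12:86292796-86292805 and chr12:86305248-86305257 in 4732487G21Rik, at chr12:86365964-86365973 and chr12:86385945-86385954 in intron 1, and at chr12:86536365-86536374 downstream of the gene. Those at chr12:86305248-86305257 and chr12:86385945-86385954 had a relaxed summit within 50 bp, with signals of 4.47 and 10.3. The site downstream of the gene lay inside a relaxed region with a signal of 6.175, whose pooled summit was more than 50 bp away. The same 10 bases were thus seen at this locus with values from no region at all to part of the strongest one.

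The bases next to the palindrome differed between E1 and E2. The 5 bases on each side, in lower case, are shown because the capitals are identical.
E1, chr12:86488218-86488240: taaaaTGCTGACTCAGCAtattt
E2, chr12:86507860-86507882: gcctgTGCTGACTCAGCAcagat
All 10 flanking bases of E1 are A or T, against 4 of 10 at E2. Over the perfect palindromes with an optimal summit, the median signal was 58.4 with 3 or fewer A or T bases (48 sites), 68.9 with 4 (84), 84.4 with 5 (103), 123.3 with 6 (67) and 232.7 with 7 (48). With 8, 9 and 10 it was 203.1, 286.8 and 381.9, over only 11, 3 and 3 sites. Of the 84 sites with the count of E2, 36.9% had a signal at or above it, and E1 was the highest of the 3 with its count, of which the lowest had 304.9. This count of flanking bases was chosen after E1 and E2 had been compared, and some palindromes share a region.

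**Figure D4:**
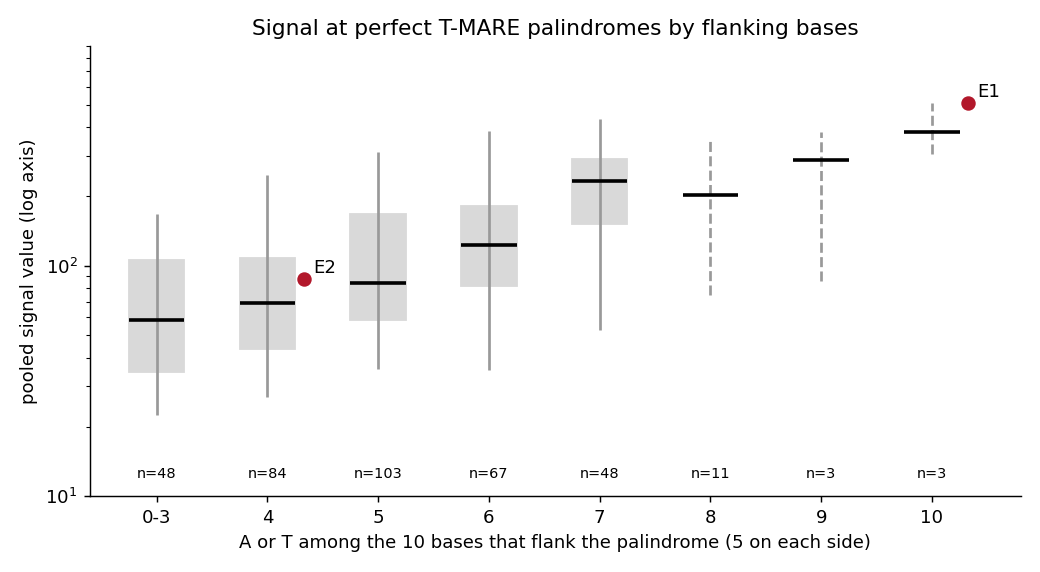
Pooled signal value (log axis) of perfect palindromes with an optimal summit within 50 bp, by the number of A or T among their 10 flanking bases. Bars mark medians; boxes show the middle 50% and lines the 5th to 95th percentiles, or the lowest to the highest value (dashed) under 20 sites. E2 stands at 87.8 among the sites with 4 and E1 at 509.4 among those with 10.

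The sequence of E1 had a single relative in the genome, and it was also a MAFK region. An alignment of the 389 bases of E1 with the whole reference (blastn, e-value under 1e-05) gave 1 other match, on the minus strand at chr3:16130373-16130739, with 80.3% identity over 371 columns. Among 299897 relaxed regions the same search gave 1, at chr3:16130470-16130705. This region was in the optimal list with a pooled signal of 194.7 and rank 387, with 100.4 in replicate 1 and 92.9 in replicate 2, and it overlapped both replicates' thresholded lists. It was in no annotated gene, and the nearest protein-coding start, that of Ythdf3, an RNA m6A reader gene, was 52.6 kb away. The elements of E1 (plus strand) and of the copy (minus strand) are shown because they differ by 1 base.
E1, chr12:86488218-86488240: taaaaTGCTGACTCAGCAtattt
copy, chr3:16130576-16130598: taaaaTGCTGACTCAACAtattt
Counted from the first base of the palindrome, the difference is G11A, and the 10 flanking bases are the same. E1 had 2.62 times the pooled signal of the copy, 2.65 times in replicate 1 and 2.66 times in replicate 2. The copy was nonetheless high for its class, as 5.63% of the 2024 optimal regions with 1 mismatch were at or above it. The longest run of identical bases between them was 26 bp, and whether reads were placed between the copies was not tested. Other bases of the regions differ too, and the part of the 1 base in the ratio cannot be told apart from theirs.

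The copy extended well beyond E1. Within 30 kb of both summits, 12 alignments in the same inverted order covered 89.4% of chr12:86481795-86496144, from intron 2 to intron 3, and ran over chr3:16121963-16136410. Their identity was 69.6% to 80.3%, and all 117 bases of exon 3 lay in one of them. Each stretch held 1 optimal region, E1 and its copy. The Esrrb stretch held 11 relaxed regions and the copy 10, and apart from the strongest their signals were 4.65 to 9.44 at Esrrb and 3.87 to 7.26 on chromosome 3. The pair was thus the only place in the duplicated stretch where an optimal summit was found.

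Below the threshold lay 87 relaxed regions of the locus that overlap no optimal region. The 9 that do are 9.38% of the 96, beside 5.7% of the whole relaxed list, and 15 of the 96 had a deposited q-value under 0.05, beside 15.6% of that list. The signals of the 87 ran from 3.83 to 17.0 with a median of 4.90, close to the median of 5.0 over the whole list. Of the 87, 21 overlapped a region in both replicates, 29 in replicate 1 only, 25 in replicate 2 only and 12 in neither. The same counts over the whole relaxed list are not given here, so these describe the locus only. The composite element was in 2 of the 87, beside 1.51% of such regions genome-wide. Per 100 kb there were 25 relaxed regions upstream of the gene, 36.1 in it and 13 downstream. Over the whole window there were 26.6, where the median protein-coding gene window had 16.4 and 7.32% of genes had at least as many.

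Those of highest signal found in both replicates were all in introns but one. The first was the intron 3 region at chr12:86501597-86501892 given above. It lacked every MAF-type form searched but held an ESRRB-type element, shown in capitals on the minus strand. That element was in 2 of the 87, beside 0.331% of such regions genome-wide.
R9, chr12:86501712-86501730: acagtTCAAGGTCAtgctc
The next, in intron 2 at chr12:86472125-86472420, had 10.7 in the pooled list, 6.09 in replicate 1 and 3.19 in replicate 2. The third, in intron 1 at chr12:86385847-86386142, had 10.3, 2.37 and 7.05 in the same order and the composite element at the edge of its window.
R11, chr12:86385940-86385959: tcttaTGAGTCAGCAgaagg
Another, in intron 2 at chr12:86471674-86471969, had 8.65, 3.86 and 4.84, and the last, intergenic at chr12:86577642-86577937, had 7.90, 5.87 and 2.62. The replicate 1 value at chr12:86471674-86471969 and the replicate 2 value at chr12:86577642-86577937 belong to overlapping regions whose summits lie 234 and 172 bp away, outside the pooled region. The higher replicate was replicate 1 at 3 of these 5 and replicate 2 at 2.

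The relaxed regions nearest to the annotated Esrrb starts were weak, and none had a deposited q-value under 0.05. As the relaxed list includes background, they need not be MAFK sites. The relaxed region nearest to the shared start of Esrrb-202 and Esrrb-203 (chr12:86421644) had its summit 138 bp away, with a pooled signal of 7.88 and 3.84 in replicate 1, and overlapped no region of replicate 2. The same region was the nearest to the start of Esrrb-201, at 377 bp. That at the start of Esrrb-206 (chr12:86470117) was 36 bp away, with 6.18 in the pooled list, 2.45 in replicate 1 and 3.48 in replicate 2. The nearest to the start of Esrrb-204 was 1650 bp away with 5.94 in the pooled list and 2.48 in replicate 1, and that of Esrrb-205 was 1935 bp away with 5.19 and overlapped no region of either replicate.

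Against other genes, Esrrb had many regions, more clearly by number than by density. Of 21938 protein-coding genes, 3.68% had at least 8 optimal summits in the same kind of window, where the median gene had 2. Long genes have long windows: at 2.22 regions per 100 kb, 11.6% of genes were at or above Esrrb, and the median was 0.869. Among the 1677 genes whose window length was within 1.2 times that of Esrrb, 6.02% had at least as many, with a median of 3. The share was 0.474% with gene bodies alone and 0.615% in the conservative list, in which the weak regions upstream of E1 count too. Neither share was matched for length, and a gene body of 160.5 kb has more room for regions than a short one. It was 13.1% in replicate 1's thresholded list and 2.79% in that of replicate 2. No other protein-coding gene has its TSS in the Esrrb window. The end of Gpatch2l overlaps it, and the next gene downstream, Vash1, starts outside at chr12:86678700.

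**Figure D5:**
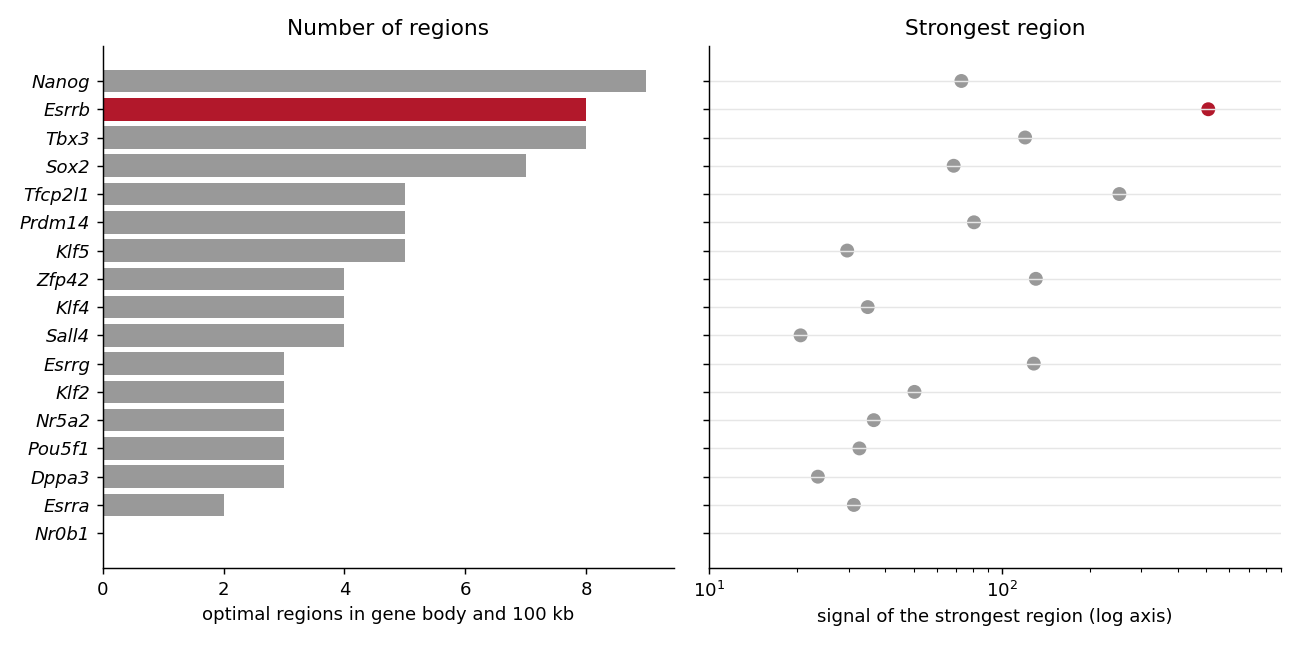
Number of optimal regions in the gene body and 100 kb (left) and the signal of the strongest of them on a log axis (right), for Esrrb (red) and 16 other genes. Nanog has 9 regions and Esrrb and Tbx3 have 8 each; the strongest region of Esrrb, at 509.4, is followed by that of Tfcp2l1 at 252.9, and Nr0b1 has none.

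Beside 16 other genes, 14 of the pluripotency network and the related receptor genes Esrra and Esrrg, the number of regions at Esrrb was high. That its strongest region exceeded theirs was fixed in advance, since E1 ranks first in the whole optimal list. Nanog, a homeobox factor of naive pluripotency, had 9 regions, the strongest with a signal of 72.8. Tbx3, a T-box factor, had 8 with 120.3, and Sox2, the partner of OCT4, had 7 with 68.5. Tfcp2l1, a naive pluripotency factor, had 5 with 252.9. Prdm14 and Klf5 also had 5, with 80.4 and 29.6. The other genes had 0 to 4, and 1 of the 16, Nr0b1, had none. Per 100 kb, 5 of the 16 were above Esrrb, including Nanog with 4.34 and Tbx3 with 3.74. The windows of Nanog and Tbx3 are shorter, at 207.1 and 214.1 kb beside 360.5 kb for Esrrb. A short window did not by itself give a higher density, as Pou5f1 had 1.47 in 204.8 kb. A perfect palindrome lay at a region of 3 of the 16 (Tfcp2l1, Prdm14 and Esrrg), with 1 such region each, and Esrrb had 2. Nearness of a region says nothing of whether MAFK regulates the gene.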

How the data were processed

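MAFK ChIP-seq regions on mm10 from 2 replicates of ES-E14 were used as deposited. Per the labels and the notes deposited with the samples, lists came from 2 processing runs. The first gave relaxed lists, pooled and per replicate, from which IDR at 0.05 yielded the optimal and conservative lists. The second gave the replicates' thresholded lists. Which aligner, peak caller or read filter was used is not given in the sources used here. The authors deposited a signal value without stating its scale, an IDR score and a −log10 q-value for each region. Signal served to describe and rank regions within a list. Ratios between the replicates' separately processed lists are descriptions and are read beside the median ratio over all optimal regions.

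The members, the gene list and the elements were chosen with earlier results of these data known. Named regions are all optimal regions, the 5 strongest relaxed regions without an optimal overlap that are found in both replicates, and the regions nearest to each TSS. Named genes are Nanog, Tfcp2l1 and the 3 others with most regions, where Prdm14 and Klf5 tied. Perfect palindromes at other genes, the flanking bases and the extent of the chromosome 3 copy were examined after values were seen. Overlap meant at least 1 bp. A replicate's value is that of its strongest overlapping relaxed region.

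Sequences came from GRCm38.p6 (RefSeq), the sequence behind mm10. Gene models were those of GENCODE vM21. Elements were searched within 50 bp of the summit. Sequence analyses used the 16836 optimal regions on assembled chromosomes. Tools were Python 3.11.15, pysam 0.24.0, samtools 1.23.1 and blastn 2.17.0. The element search and overlap code were tested on simulated data. With 1 condition no test between groups was possible, so no p-values are given.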

Additional observations from a re-analysis of the deposited data

How the results depend on the processing

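E1 ranked first in the optimal, conservative and second-run lists, and first or second (1 to 2) when either replicate was left out. The 8 optimal regions became 3 to 6 in the thresholded lists of single replicates, and between 6 and 11 under the other list and window choices. The 96 relaxed regions became 15 with a q-value under 0.05, and 80 to 89 in the lists of single replicates. The replicates' rho of 0.698 was 0.833 over the 8 optimal regions alone. The share of genes with at least as many regions as Esrrb, 3.68%, was 11.6% per 100 kb. It was 0.474% with gene bodies only, a count that was not matched for gene length. In the conservative list it was 0.615%, and in the same thresholded lists 2.79% to 13.1%. The thresholded lists come from the second processing run, so the replicate and the run changed together and cannot be told apart. The copy on chromosome 3 was 1 match, and with at least 90% identity there were 0. The 1 gene of 16 with more regions than Esrrb became 5 per 100 kb and 0 in the conservative list, both chosen after seeing the data. The counts of MAF-type elements stayed within 1.5 times under each alternative tried. The thresholded lists of single replicates are also smaller everywhere, and the cause of any of these changes was not tested. Depth is unknown, so no interval can be given for a signal value. No paired analysis was possible because the study has 1 group.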
